A study of Homo sapiens with 21 samples.

Results

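SK-MEL-147 cells treated with MS023 were compared with the same cells treated with GSK-484. The libraries were assigned by their compound label: 3 MS023 libraries and 3 GSK-484 libraries, which are 6 of the 21 libraries of the study. GSK-484 was picked as a treated reference with earlier results of these data known. These were the low counts of its target gene and a trend of untreated libraries with the GC content of transcripts. SK-MEL-147 is a human melanoma cell line, and poly-A selected RNA was sequenced from it in 7 groups of 3 libraries: MS023, GSK-591, TP-472, UNC0642, JQ-1, GSK-484 and untreated cells. All groups were grown in the same serum-containing medium, and each treated group received a single compound. The labels give no dose, no length of treatment and no vehicle for either compound. They call the replicates biological without saying that each was its own culture, so every p-value below reflects the scatter among these libraries, part of which may be technical. All libraries come from a single cell line, which limits the comparison to that line.

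Type I arginine methyltransferases place asymmetric dimethylarginine on histones and on many RNA-binding proteins with arginine-glycine repeats. PRMT1 does most of this work in mammalian cells, CARM1 (PRMT4), PRMT3, PRMT6 and PRMT8 share the rest, and MS023 inhibits the type I enzymes as a class. PRMT5 places symmetric dimethylarginine instead and is the target of GSK-591. GSK-484 inhibits PADI4, an enzyme that converts arginine to citrulline in histones. MS023 and GSK-484 therefore both act on enzymes that modify arginine, and the comparison asks which transcripts differ between cells given a type I methyltransferase inhibitor and cells given a deiminase inhibitor. It does not show what either compound did relative to untreated cells.

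The enzymes themselves were read first. PADI4, the target of GSK-484, was too low to be tested, with 9 counts in all over the 3 MS023 libraries and 13 over the 3 GSK-484 libraries. Its low level was among the reasons for the choice of GSK-484, so it is no finding of this comparison. PRMT8 had 0 counts in all 6 libraries. Levels below are CPM (expected counts scaled by the TMM-adjusted library total) and fold changes are log2 values of MS023 over GSK-484 with their SE. Inhibition of an enzyme's activity need not change its RNA, so these values do not check the compounds.

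MS023 libraries held 37865968, 50275940 and 35852990 expected counts, and GSK-484 libraries held 41160857, 36317986 and 36316241. The first principal component of the 6 libraries (27.1% of the variance) ran from 11.3 to 19.3 in MS023 and from -22.6 to -8.56 in GSK-484 libraries. On the second (22.3%), GSK-484 replicate 1 stood at 29.1 and the other GSK-484 libraries at -5.85 and -20.2, while MS023 libraries lay between -3.44 and 0.411. Of the melanoma markers, SOX10, AXL, NGFR, VIM, NES and FOSL1 were expressed in all 6 libraries, MITF stood at 9.24 to 11 CPM, and TYR, DCT, PMEL, MLANA and S100B were at or near 0. The pigment genes that define differentiated melanocytes were therefore absent or close to it. The list of markers of other cell types summed to 183 to 189 CPM in MS023 and 153 to 196 CPM in GSK-484 libraries, 0 of its 9 tested members were called by edgeR or DESeq2, and 0 had an unadjusted p under 0.05; DCN and HBB were at 0 in all 6 libraries, and SYT1 (27.3 to 31.6 CPM) and COL1A1 (3.53 to 5.47 CPM) were expressed. Most of the sum came from CD68, a lysosomal glycoprotein gene used as a macrophage marker, which averaged 150.5 CPM in MS023 and 139 CPM in GSK-484 libraries and was not called (adjusted p = 0.264).

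The sequences below are 4 promoter windows picked after the values were seen: those of NT5E and OPN3, which fell with MS023, and those of DDX39B and CHTOP, mRNA export genes that rose. They are RefSeq windows of build GRCh38.p14, from 250 bases before to 50 after the gene start, printed in the direction of transcription. Capitals mark GGGCGG (the GC box bound by SP-family factors) and TGACG (the core of the cyclic AMP response element), searched on both strands. NT5E lies at chr6:85449833-85450132 (plus strand), OPN3 at chr1:241640320-241640619 (minus strand), DDX39B at chr6:31541954-31542253 (minus strand) and CHTOP at chr1:153633816-153634115 (plus strand).
NT5E: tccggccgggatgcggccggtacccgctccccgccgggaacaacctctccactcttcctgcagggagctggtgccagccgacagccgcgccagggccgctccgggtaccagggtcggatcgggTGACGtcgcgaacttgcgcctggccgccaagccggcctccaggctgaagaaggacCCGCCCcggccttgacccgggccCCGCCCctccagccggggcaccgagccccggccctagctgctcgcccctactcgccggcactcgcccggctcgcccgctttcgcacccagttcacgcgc
OPN3 and CHML: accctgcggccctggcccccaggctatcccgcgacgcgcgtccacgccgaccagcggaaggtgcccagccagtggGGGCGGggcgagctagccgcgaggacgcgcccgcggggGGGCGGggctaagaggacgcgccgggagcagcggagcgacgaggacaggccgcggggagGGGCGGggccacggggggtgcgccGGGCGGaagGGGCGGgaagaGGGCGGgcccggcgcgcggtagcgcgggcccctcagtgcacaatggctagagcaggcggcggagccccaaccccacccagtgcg
DDX39B: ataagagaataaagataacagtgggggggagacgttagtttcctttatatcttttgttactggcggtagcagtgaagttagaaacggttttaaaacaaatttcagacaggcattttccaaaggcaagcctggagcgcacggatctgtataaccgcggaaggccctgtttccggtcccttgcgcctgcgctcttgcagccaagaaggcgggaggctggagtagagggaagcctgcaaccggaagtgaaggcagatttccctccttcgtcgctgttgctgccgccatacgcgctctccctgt
CHTOP: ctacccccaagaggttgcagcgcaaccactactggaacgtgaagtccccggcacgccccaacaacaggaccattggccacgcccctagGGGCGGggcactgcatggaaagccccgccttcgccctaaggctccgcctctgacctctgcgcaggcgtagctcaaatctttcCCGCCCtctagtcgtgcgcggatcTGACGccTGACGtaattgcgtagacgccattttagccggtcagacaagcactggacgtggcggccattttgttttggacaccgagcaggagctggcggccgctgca
The window of OPN3 is also that of CHML, a gene on the same strand with the same start in RefSeq. It held 6 GC boxes, against 2 in NT5E, 2 in CHTOP and 0 in DDX39B. TGACG was found once in NT5E, at 2 places in CHTOP and in neither of the other windows. Of 35116 RefSeq windows of 300 bases, 45% held GGGCGG and 24.6% held TGACG, so neither motif sets these promoters apart.

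With MS023, 955 genes were higher and 922 lower than with GSK-484, which is 12.5% of the 15062 genes tested (6.34% higher, 6.12% lower; edgeR quasi-likelihood test, two-sided, Benjamini-Hochberg adjusted p under 0.05). The changes were small: the median change of called genes was 1.16-fold, and 108 genes (0.717%) were called and differed at least 1.5-fold. Of these 108, 30 were higher (0.199% of genes tested) and 78 lower (0.518%) with MS023. Against a minimum fold of 1.2, tested with glmTreat of edgeR, 29 genes remained, 25 lower and 4 higher. The 4 were the long noncoding RNAs LINC-PINT and PKI55, the RNA helicase gene DDX39B and the lactate exporter gene SLC16A3. The groups did not overlap in CPM for 3934 genes, 26.1% of those tested. With total-count scaling in place of TMM the split of calls moved to 542 higher (35.2%) and 998 lower, and the median over all genes moved to -0.027 from -0.0060 (log2).

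**Figure D1:**
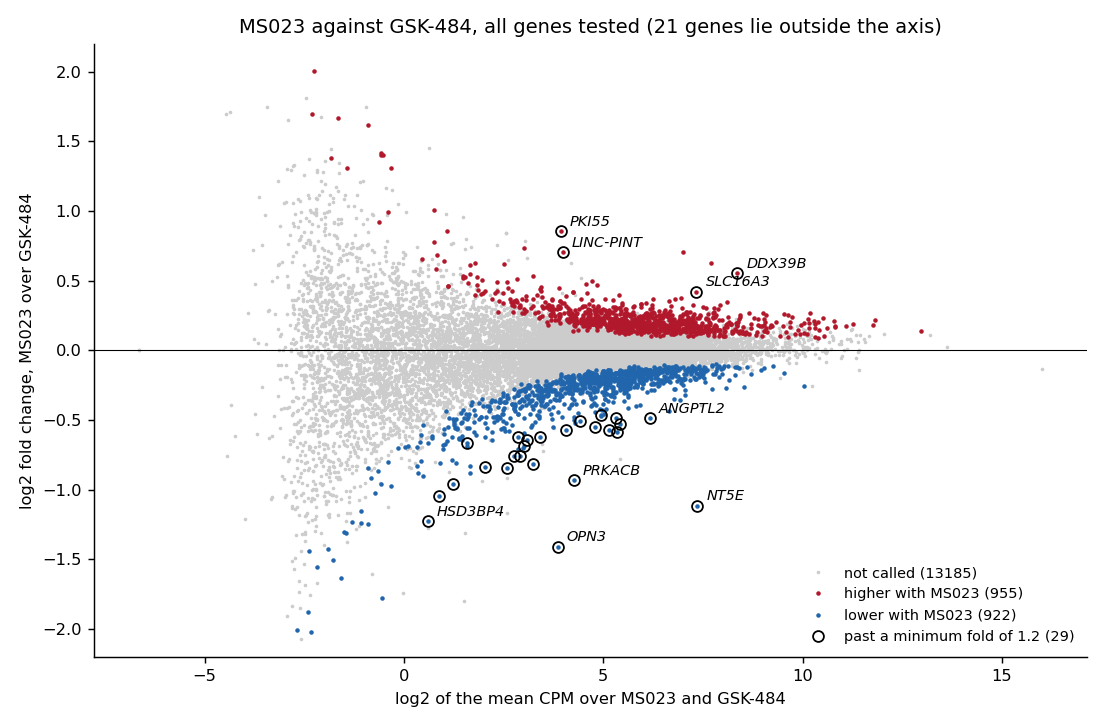
Each point is a gene tested, by the log2 of its mean CPM over both groups (horizontal) and its log2 fold change, MS023 over GSK-484 (vertical). Red and blue mark the 955 higher and 922 lower genes, circles the 29 genes past a minimum fold of 1.2, of which 25 lie below 0; 21 genes lie outside the vertical axis.

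The count of calls rested on single libraries. Without MS023 replicate 2 it was 741 and without GSK-484 replicate 3 it was 956, while leaving out any of the other 4 libraries gave 1294 to 2223. MS023 replicate 2 is the deepest of the 6 libraries, but GSK-484 replicate 3 (36316241 counts) is as deep as GSK-484 replicate 2 (36317986). Both also lie at the extremes of the slope of log2 CPM on GC content, which is described below. MS023 replicate 2 had the highest slope of the 6 libraries (-0.159) and GSK-484 replicate 3 the lowest (-0.322). The part of depth or of this slope in the lower counts of calls was not tested. With the 6 libraries fitted alone, 433 genes were called.

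Fold changes followed the base composition of transcripts. Genes called higher with MS023 had a median transcript GC content of 59.1% and genes called lower 43.4%, against 49.2% over all genes tested. In the lowest decile of GC content 0.567% of genes were called higher and 12.5% lower, and in the highest decile 17.6% were called higher and 0.709% lower. The median log2 fold change ran from -0.089 to 0.12 over the same range, and the Spearman correlation across 14095 genes, which are not independent replicates, was 0.39. The slope of log2 CPM on GC content averaged -0.21 ± 0.046 per 10 percentage points in MS023 and -0.28 ± 0.042 in GSK-484 libraries (SD, n = 3 each), and the groups overlapped (two-sided exact permutation test, p = 0.2, the smallest possible being 0.1). Over genes of at least 5 CPM the groups did not overlap, with 0.051 ± 0.044 in MS023 and -0.033 ± 0.041 in GSK-484 libraries (exact p = 0.1). A comparison of treated groups thus still carried a GC trend, and its part in the results was not tested. Every result below was therefore fitted a second time with the GC trend of each library removed. That fit called 1154 genes (7.66%), 564 higher (3.74%) and 590 lower (3.92%), of which 394 and 460 were also called in the same direction without the correction.

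**Figure D2:**
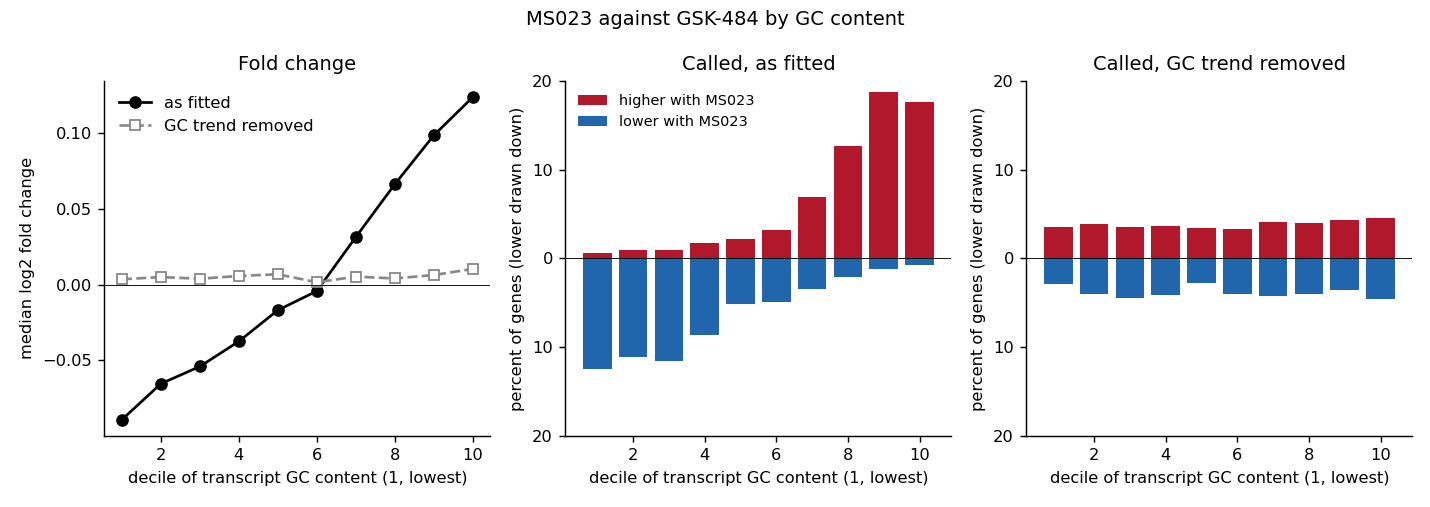
Genes are grouped into deciles of transcript GC content (horizontal, 1 lowest). The left panel shows the median log2 fold change, MS023 over GSK-484, as fitted and with the GC trend removed; the other panels show the percent called higher (red, up) and lower (blue, down), which ran from 0.567% to 17.6% and from 12.5% to 0.709% as fitted and stayed between 2.77% and 4.61% after removal.

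The clearest fall was in NT5E, which encodes CD73, the cell-surface enzyme that turns AMP into adenosine. NT5E (chr6:85449584-85495791, hg38) had 103, 102 and 105 CPM in MS023 libraries, against 217, 228 and 229 CPM in GSK-484 libraries. All MS023 libraries lay below all GSK-484 libraries by more than the whole range within either group. The log2 fold change was -1.11 (SE 0.031, adjusted p = 6.57e-17), and -1.06 with the GC trend removed. Against GSK-591, the PRMT5 inhibitor, it was -1.05 (95% interval -1.11 to -0.98, adjusted p = 2.91e-16). In the other groups NT5E averaged 214 ± 5.32 CPM with GSK-591, 226 ± 2.21 CPM with TP-472, 259 ± 3.30 with UNC0642, 380 ± 8.20 with JQ-1 and 238 ± 1.43 CPM in untreated cells (SD, n = 3 each), so MS023 had the lowest mean of the 7 groups. Of the 12 tested genes for adenosine and ATP ectoenzymes and receptors, edgeR called 0 higher and 1, NT5E itself, lower. Over all genes the shares were 6.34% and 6.12%. Of the 12 genes 2 had an unadjusted p under 0.05, and DESeq2 called 1.

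Several other genes fell by less than NT5E. PRKACB, a catalytic subunit of the cyclic AMP-dependent protein kinase, had 13.1, 12.3 and 14.3 CPM in MS023 libraries, against 24.2, 25.0 and 26.3 CPM in GSK-484 libraries (log2 fold change -0.93, SE 0.061, adjusted p = 1.11e-09). PDE3B, a phosphodiesterase that breaks down cyclic AMP, had 6.21, 6.22 and 5.55 CPM with MS023, against 9.17, 10.5 and 9.58 CPM with GSK-484 (-0.70, SE 0.15, adjusted p = 0.00355). Both genes fell without overlap between the groups. HADH, an enzyme of mitochondrial fatty acid oxidation, had 28.3, 27.5 and 30.05 CPM with MS023, against 43.2, 42.9 and 41.0 CPM with GSK-484 (-0.57, SE 0.045, adjusted p = 3.35e-08). ANGPTL2, a secreted angiopoietin-like protein, averaged 59.8 ± 2.88 CPM with MS023 and 83.7 ± 4.54 CPM with GSK-484 (-0.49), and FBLN7, a fibulin of the extracellular matrix, 4.29 ± 0.528 and 7.76 ± 1.24 CPM (-0.85). PDCD1LG2, which encodes the immune checkpoint ligand PD-L2, had 8.52, 7.49 and 9.10 CPM with MS023, against 11.3, 13.2 and 13.9 CPM with GSK-484 (-0.62, adjusted p = 0.000215). Its relative CD274, which encodes PD-L1, changed less (-0.15, adjusted p = 0.0103) and was not called with the GC trend removed (adjusted p = 0.167), nor without MS023 replicate 1 (0.065) or GSK-484 replicate 3 (0.0728). Every other gene of this paragraph was also called in that second fit.

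**Figure D3:**
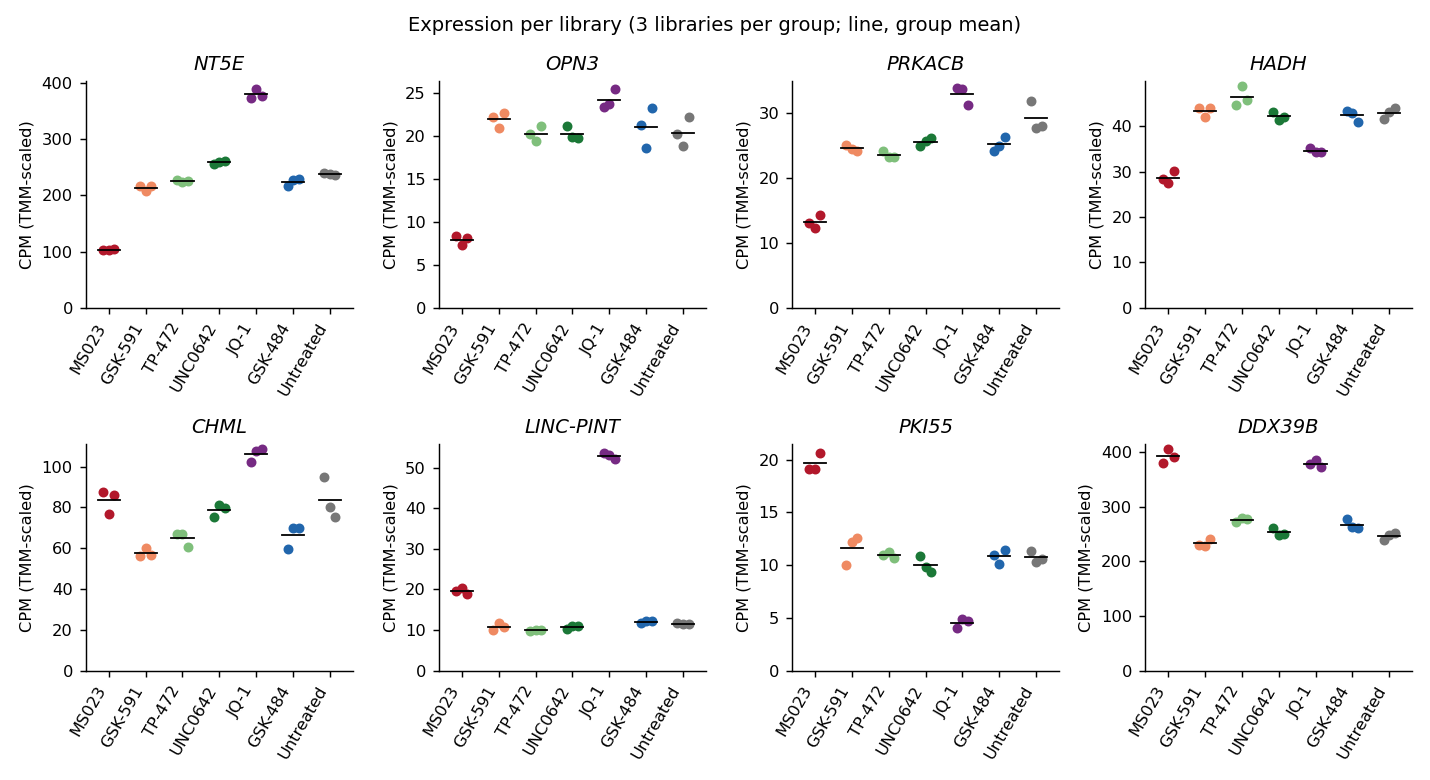
CPM per library (vertical, from 0) for 8 genes in the 7 groups, with 3 points per group and a line at the group mean. NT5E, OPN3, PRKACB and HADH are lowest with MS023; LINC-PINT is higher with JQ-1 (53 CPM) than with MS023 (19.7 CPM), and PKI55 is highest with MS023.

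OPN3, which encodes an opsin found in melanocytes and brain, showed a larger fitted fall, but CHML, a Rab escort protein gene, lies within it on the same strand in the gene models. OPN3 had 8.39, 7.39 and 8.13 CPM in MS023 libraries, against 21.3, 18.7 and 23.3 CPM in GSK-484 libraries (log2 fold change -1.41, SE 0.079, adjusted p = 8.61e-11). CHML moved the other way, with 87.6, 76.5 and 86.1 CPM in MS023 libraries, against 59.7, 70.1 and 69.9 CPM in GSK-484 libraries (0.32, SE 0.073, adjusted p = 0.00595). The expected counts of OPN3 were not whole in 5 of the 6 libraries, while those of CHML were whole in all 6. Counts that are not whole mark reads divided between genes; with which gene OPN3 shared them was not tested, and its value is uncertain. OPN3 held 8.74, 8.80 and 8.62% of the OPN3 and CHML counts in MS023 libraries, against 26.29, 21.03 and 24.95% in GSK-484 libraries, and 17.6 to 28.6% in the other 15 libraries. The summed level overlapped between the groups, at 91.4 ± 6.51 CPM with MS023 and 87.6 ± 6.16 CPM with GSK-484. In untreated cells the summed level was 115.1, 99.07 and 97.41 CPM, with OPN3 at 20.2, 18.9 and 22.2 CPM. CHML is thus not shown to be higher with MS023 than in untreated cells. The pair was picked for the fall of OPN3, so these shares are given with no test; CHML was named after its values were seen.

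Among genes with whole counts and at least 3 CPM, the first 2 by size of rise were long noncoding RNAs. PKI55, listed by RefSeq as LINC01963, had 19.1, 19.2 and 20.7 CPM in MS023 libraries, against 11, 10.1 and 11.4 CPM in GSK-484 libraries (log2 fold change 0.86, SE 0.080, adjusted p = 4.78e-07). LINC-PINT, a noncoding RNA known as a p53 target, had 19.6, 20.3 and 19.0 CPM with MS023, against 11.8, 12.2 and 12.2 CPM with GSK-484 (0.71, SE 0.052, adjusted p = 1.07e-08). NEAT1, the scaffold of nuclear paraspeckles, had 217, 206 and 208 CPM with MS023, against 175, 168 and 168 CPM with GSK-484 (0.31, SE 0.037, adjusted p = 2.54e-05), with counts that were not whole in 4 of the 6 libraries. These 3 RNAs were called in both fits, though PKI55 and LINC-PINT matched no gene model and so had no GC content to correct for. Of 19 tested snoRNA host and nuclear long noncoding RNAs, the main fit called NEAT1 higher and 0 lower, against 6.34% and 6.12% of all genes; 4 had an unadjusted p under 0.05, and DESeq2 called 2, as did the fit with the GC trend removed. RAB26, a small GTPase of secretory vesicles, had 6.05, 7.57 and 6.88 CPM with MS023, against 4.80, 4.20 and 4.34 CPM with GSK-484 (0.62, adjusted p = 0.00205). The groups did not overlap for any of these 4 genes.

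The remaining rises of the same rule were smaller, at log2 fold changes of 0.50 to 0.61, and mostly of genes with under 5 CPM. They were YY2, a relative of the transcription factor YY1, TMEM234, KCNAB1, a potassium channel subunit, FLNC, a muscle-type filamin, PDGFB, a growth factor chain, ADM5, SYNE3, a nuclear envelope protein, the pseudogene DPH3P1 and IER5L. IER5L was the most abundant of them, with 29.5, 34.4 and 28.0 CPM in MS023 libraries, against 20.9, 22.7 and 21.8 CPM in GSK-484 libraries (0.50, SE 0.091, adjusted p = 0.0013). ADM5 overlaps the end of PRMT1 on the same strand in the gene models, so its reads and those of PRMT1 may not be fully separable. PDGFB and ADM5 were not called with the GC trend removed (adjusted p = 0.0734 and 0.0795). Leaving out a single library ended the calls of KCNAB1 (5 of the 6 libraries, adjusted p = 0.0508 to 0.0972), PDGFB, ADM5, TMEM234 and SYNE3 in at least 1 case. The remaining falls, at -0.96 to -0.71, were C6orf226, C11orf91, SCAMP1-AS1, LOC171391, LINC00622, LOC389831, C14orf142 and KCNJ14, a potassium channel, and all 8 were called in both fits. LOC171391 had 2.02, 2.47 and 2.30 CPM with MS023, against 4.63, 3.25 and 4.20 CPM with GSK-484. Its MS023 libraries overlapped those of untreated cells (2.35, 3.04 and 2.17 CPM) and of GSK-591 (1.80, 2.69 and 2.30 CPM). The TP-472, UNC0642 and JQ-1 libraries lay above them. LOC389831 and C14orf142, like PKI55 and LINC-PINT, matched no gene model, so the second fit made no GC correction for them. SCAMP1-AS1 is antisense by name but a long intergenic noncoding RNA in the gene models. Whether its reads overlap those of another gene was not tested. LINC00622 was the most abundant, with 7.17, 6.34 and 6.96 CPM with MS023, against 12.8, 10.4 and 12.7 CPM with GSK-484 (-0.82, SE 0.11, adjusted p = 0.000119).

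Genes with whole counts in fewer than 4 of the 6 libraries are uncertain, because their reads may be divided with other genes. The 7SL RNAs of the signal recognition particle were among them: RN7SL1 had 212, 129 and 134 CPM in MS023 libraries, against 109, 103 and 79.4 CPM in GSK-484 libraries (0.70, adjusted p = 0.0238; 0.0763 with the GC trend removed). RN7SL2 stood at 0.63 (adjusted p = 0.0162), LOC642423 at 0.74 (0.019) and AURKAPS1 at 0.63 (0.00393). The 7SL and 7SK RNAs have no poly-A tail, and together they held 0.041 ± 0.0108% of counts in MS023 and 0.0265 ± 0.00352% in GSK-484 libraries (SD, n = 3 each, two-sided exact permutation p = 0.1, the smallest possible), with MS023 replicate 1 the highest; their part in the results was not tested. Among the falls, ZBTB11-AS1, antisense by name, stood at -0.81 (adjusted p = 0.00324) and CYP2U1, a fatty acid hydroxylase, at -0.64 (0.000586). The readthrough transcript ABHD14A-ACY1 was listed at 0, 0 and 0.472 CPM with MS023, against 6.72, 3.66 and 2.22 CPM with GSK-484 (adjusted p = 0.0353; 0.221 with DESeq2). The calls of RN7SL1, RN7SL2, LOC642423 and ABHD14A-ACY1 each ended when some single library was left out, those of both 7SL genes without MS023 replicate 1 (adjusted p = 0.167 and 0.123).

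RNA levels of the type I enzymes differed by at most 1.21-fold between the groups. PRMT1 had 226, 246 and 237 CPM in MS023 libraries, against 186, 208 and 193 CPM in GSK-484 libraries (log2 fold change 0.27, SE 0.051, adjusted p = 0.00158). PRMT3 had 23.6, 25.2 and 25.5 CPM with MS023, against 29.1, 29.995 and 30.2 CPM with GSK-484 (-0.27, SE 0.053, adjusted p = 0.00258). PRMT2 also rose (0.17, adjusted p = 0.0131), and these 3 genes were called in both fits. CARM1 rose (0.15, adjusted p = 0.048) and PRMT6 fell (-0.19, adjusted p = 0.0425), but neither was called with the GC trend removed (adjusted p = 0.569 and 0.0578). PRMT5 rose by 0.11 (adjusted p = 0.0259), with counts that were not whole in any of the 6 libraries. PRMT7 stood at 0.16 (adjusted p = 0.0773) and PRMT9 at -0.04 (95% interval -0.20 to 0.12, adjusted p = 0.8), neither passing the test. The smaller calls rested on single libraries: PRMT2, PRMT5, PRMT6 and CARM1 were not called without MS023 replicate 2 (adjusted p = 0.0819, 0.0859, 0.0744 and 0.268) or without GSK-484 replicate 3 (0.0714, 0.0831, 0.185 and 0.123). PADI3 was the only deiminase gene tested and had 0.876, 1.004 and 0.805 CPM with MS023, against 1.72, 1.54 and 1.71 CPM with GSK-484 (-0.88, SE 0.21, adjusted p = 0.00903).

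RNA-binding proteins with arginine-glycine repeats are the best known substrates of the type I enzymes. Of 40 tested genes of this kind, 3 were higher and 1 lower, against 6.34% and 6.12% of all genes, and all 4 were called in both fits. With the GC trend removed 6 were higher and 1 lower, against 3.74% and 3.92% of all genes. CHTOP, a substrate of PRMT1 that belongs to the TREX mRNA export complex, had 123, 126 and 125 CPM in MS023 libraries, against 96.0, 99.4 and 93.9 CPM in GSK-484 libraries (log2 fold change 0.37, SE 0.042, adjusted p = 1.03e-05). RBM3, a cold-induced RNA-binding protein, rose by 0.27 (adjusted p = 0.000184) and EWSR1, a FET-family protein, by 0.20 (adjusted p = 0.000404). RBM15, which guides the RNA methylation complex, fell to 8.03 ± 0.959 CPM with MS023, against 11.4 ± 0.375 CPM with GSK-484 (-0.51, adjusted p = 0.00438). DDX39B, the helicase of the TREX complex, had 381, 406 and 391 CPM with MS023, against 277, 263 and 262 CPM with GSK-484 (0.56, SE 0.035, adjusted p = 5.78e-10); its counts were not whole in 4 of the 6 libraries. Of 15 TREX and mRNA export genes, a list drawn up after DDX39B and CHTOP were seen, 4 were higher and 0 lower by edgeR. Over all genes the shares were 6.34% and 6.12%. DDX39B and CHTOP are both among the 4, so no conclusion on the list is drawn from this count. In the list 7 had an unadjusted p under 0.05, and DESeq2 called 4. With the GC trend removed 3 were higher and 1 lower, and against GSK-591 3 were higher and 2 lower. THOC2 stood at 0.14 (adjusted p = 0.0358) and POLDIP3 at 0.11 (adjusted p = 0.0408), the second not called with the GC trend removed (adjusted p = 0.158). Neither was called without MS023 replicate 2 (adjusted p = 0.0587 and 0.166).

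Over all genes 6.34% were higher and 6.12% lower. Of 22 tested Sm and LSM genes, some of whose products carry symmetric dimethylarginine, edgeR called 0. In this list 8 had an unadjusted p under 0.05, and DESeq2 called 2. Of 19 genes for SR proteins and their kinases 1 was higher and 2 lower, and of 7 methylarginine reader genes 0 were higher and 2 lower, the reader calls being lost with the GC trend removed. Of 20 genes of homologous recombination and Fanconi repair edgeR called 0, with 3 at an unadjusted p under 0.05 and 1 called by DESeq2.

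**Figure D4:**
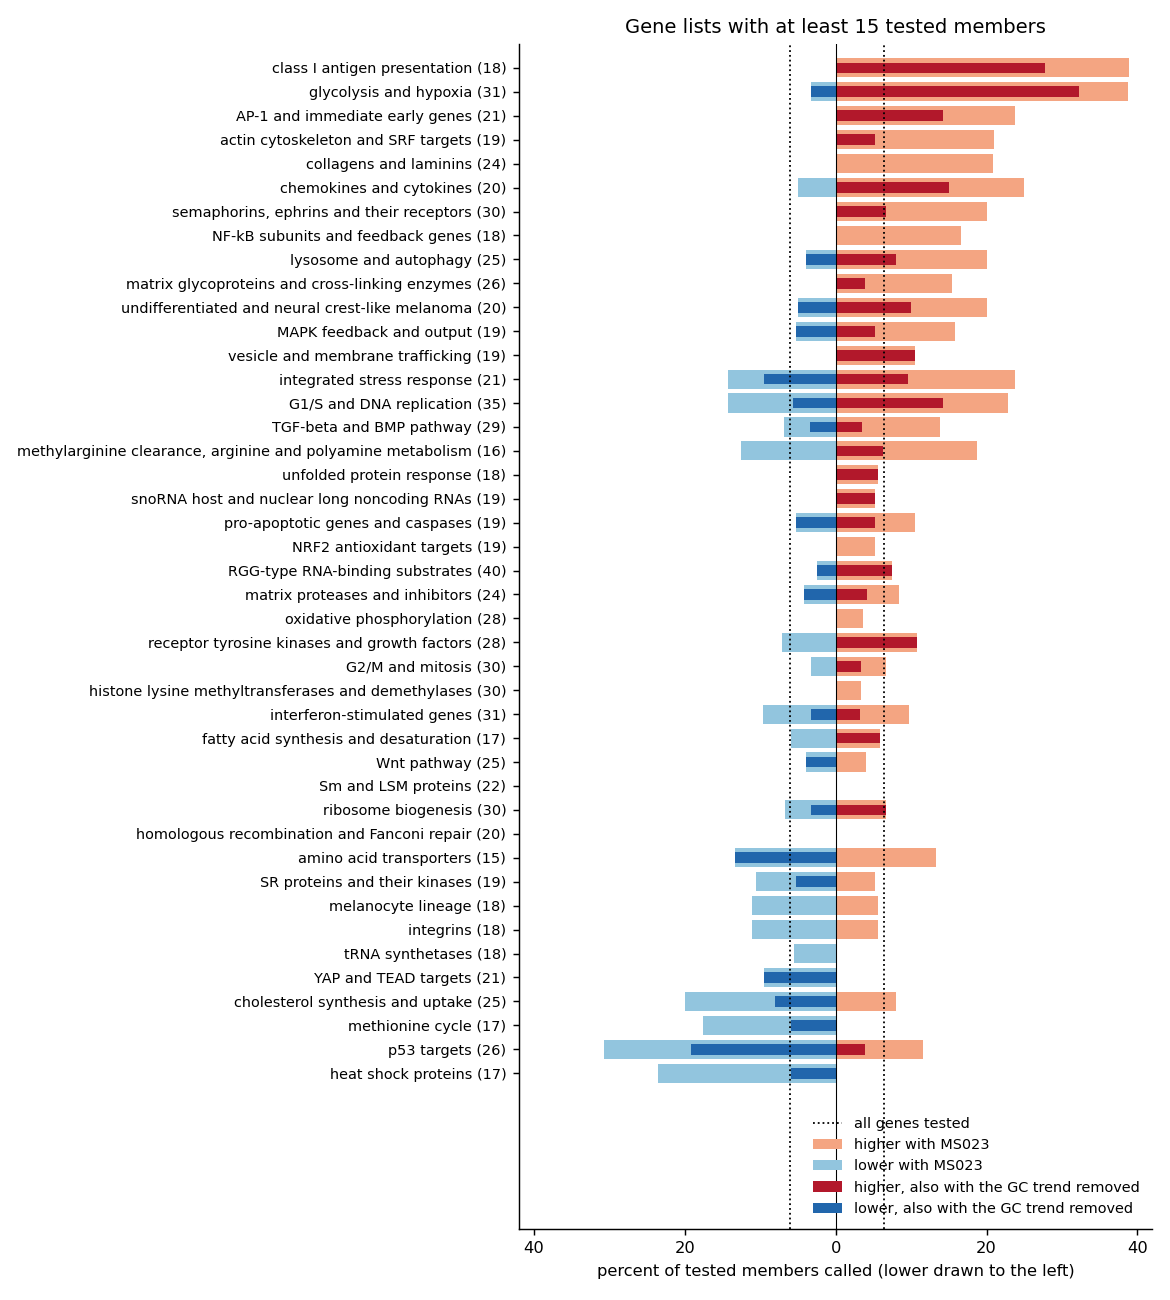
Percent of tested members called higher (right) and lower (left) with MS023 for the 43 gene lists with at least 15 tested members (number tested in brackets). Pale bars are the main fit, dark bars the members also called with the GC trend removed, and dotted lines the share over all genes tested (6.34% and 6.12%).

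Genes of glycolysis and the hypoxia response had more higher than lower calls. Of 31 tested members 12 were higher and 1 lower with MS023, against 6.34% and 6.12% of all genes, and 10 and 1 were called in both fits. Transcripts of the list had a median GC content of 55.8%, against 49.2% over all genes. The median log2 fold change of the list was 0.084, or 0.066 with the GC trend removed, against -0.0060 and 0.0033 over all genes. SLC16A3, which exports lactate, had 179, 198 and 178 CPM in MS023 libraries, against 137, 144 and 134 CPM in GSK-484 libraries (log2 fold change 0.42, SE 0.042, adjusted p = 1.32e-06). NDRG1, a gene induced by low oxygen, had 256, 259 and 259 CPM with MS023, against 211, 218 and 202 CPM with GSK-484 (0.30, SE 0.033, adjusted p = 6.52e-06). The enzymes ENO2 and PFKL each rose by 0.25 (adjusted p = 8.49e-05 and 0.00117), the first with counts that were not whole in 5 of the 6 libraries. EGLN1, the oxygen sensor that marks HIF proteins for destruction, fell to 45.2 ± 0.61 CPM with MS023, against 52.2 ± 0.961 CPM with GSK-484 (-0.21, adjusted p = 0.00133). The count of higher members was 7 without MS023 replicate 2, with 1 lower. Against GSK-591 the list had 5 higher and 1 lower, over all genes 4.46% and 5.43%.

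Class I antigen presentation genes were called in a single direction. Of 18 tested members 7 were higher and 0 lower with MS023, against 6.34% and 6.12% of all genes, and 5 and 0 in both fits; 8 had an unadjusted p under 0.05, and DESeq2 called 7. The median GC content of the list was 54.9%, against 49.2% over all genes, and its part in the count was not tested. HLA-C had 835, 894 and 843 CPM in MS023 libraries, against 761, 709 and 692 CPM in GSK-484 libraries (log2 fold change 0.25, SE 0.041, adjusted p = 0.000464). HLA-F rose by 0.28 and HLA-E by 0.17 (adjusted p = 0.00161 and 0.00176). HLA genes are close copies of one another, and the counts of these 3 were not whole in any of the 6 libraries, so reads may be divided between them and each value is uncertain. With all such genes left out before the fit, 9 members were tested and 1 was higher. Of 31 tested interferon-stimulated genes, a group often induced together with class I genes, 3 were higher and 3 lower, 1 and 1 in both fits.

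The p53 targets had more lower than higher calls. Of 26 tested members 3 were higher and 8 lower, against 6.34% and 6.12% of all genes, and 1 and 5 in both fits, with a median log2 fold change of -0.081. MDM2, the ubiquitin ligase that restrains p53, had 68.9, 68.4 and 72.1 CPM in MS023 libraries, against 81.2, 82.1 and 91 CPM in GSK-484 libraries (-0.28, SE 0.045, adjusted p = 0.000408). POLH, a polymerase that copies past DNA lesions, fell by 0.20, and XPC, a damage recognition protein, fell by 0.16 (adjusted p = 0.00169 and 0.00283). BBC3, which encodes the pro-apoptotic protein PUMA, rose to 37.2 ± 1.32 CPM with MS023, against 28.8 ± 1.95 CPM with GSK-484 (0.37, adjusted p = 6.41e-05). LINC-PINT and BBC3, both known as p53 targets, thus moved opposite to MDM2. Of 9 anti-apoptotic genes 0 were higher and 3 lower by edgeR, 5 having an unadjusted p under 0.05 and DESeq2 calling 4. BCL2 had 11.1, 9.86 and 11.7 CPM with MS023, against 15.6, 15.9 and 14.3 CPM with GSK-484 (-0.49, SE 0.077, adjusted p = 0.000352), and was the member called in both fits. Of 19 pro-apoptotic genes and caspases 2 were higher and 1 lower, 1 and 1 in both fits; the lower one, CASP8, the initiator caspase of death receptors, fell by 0.32 (adjusted p = 0.00353). The p53 list kept 1 higher and 5 lower members without MS023 replicate 2, and 1 and 4 without GSK-484 replicate 3.

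**Figure D5:**
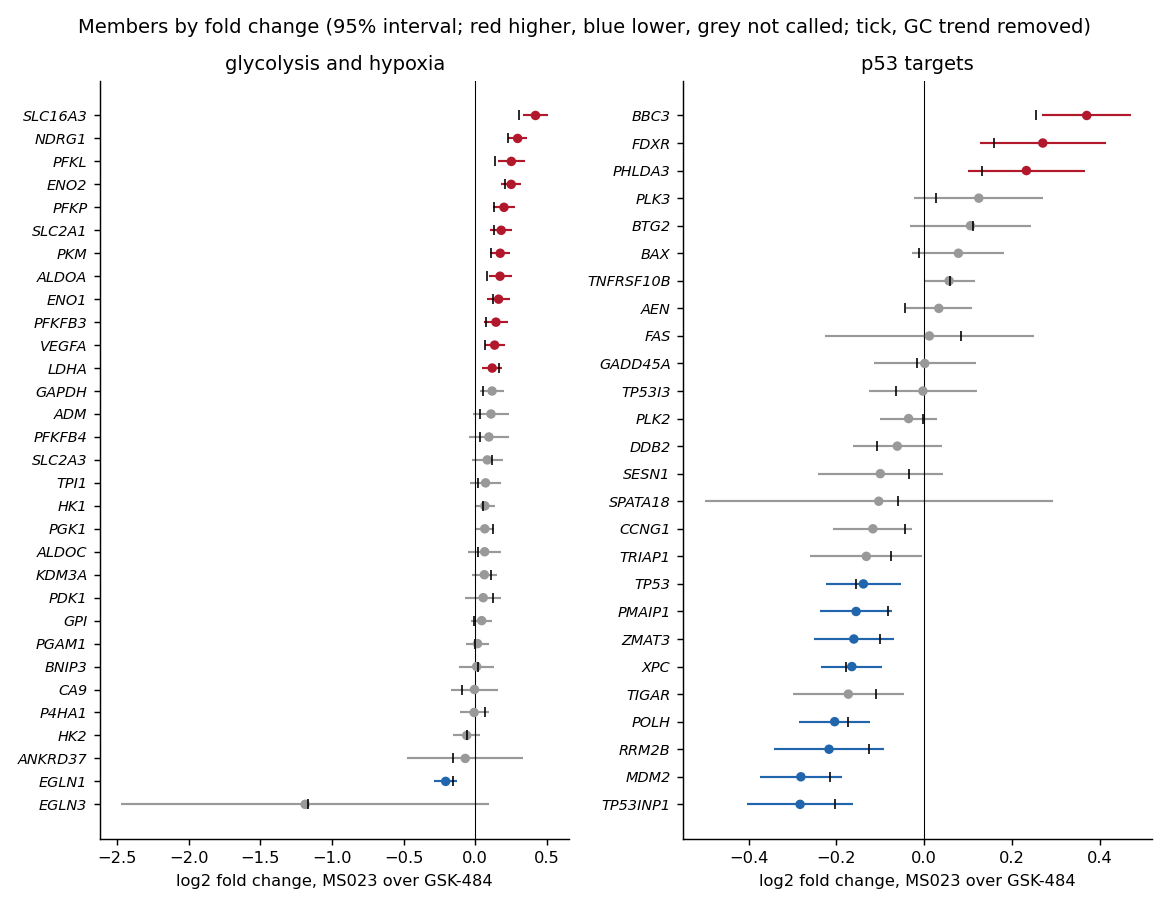
Log2 fold change, MS023 over GSK-484 (horizontal), of every tested member of the glycolysis and hypoxia (31) and p53 target (26) lists, with 95% intervals; the panels have different scales. Red members were called higher, blue lower and grey not called, and black ticks give the value with the GC trend removed.

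Cell cycle genes moved in both directions, where 6.34% of all genes were higher and 6.12% lower. Of 35 tested G1/S and DNA replication genes 8 were higher and 5 lower, 5 and 2 in both fits; without MS023 replicate 2 they were 0 and 2, and without GSK-484 replicate 3 they were 2 and 2. MCM5, a subunit of the replicative helicase, rose by 0.21 (adjusted p = 0.00664, but 0.0628 without MS023 replicate 2), and GINS1, which binds that helicase, fell by 0.24 (adjusted p = 0.0035). MCM5 had 88.3, 94.7 and 85.4 CPM with MS023, 86.1, 94.5 and 92.2 CPM with TP-472, and 66.5, 72.5 and 73.2 CPM in untreated cells. PLK1, a mitotic kinase, had 93.9, 97.5 and 92.3 CPM in MS023 libraries, against 75.1, 82.4 and 80.3 CPM in GSK-484 libraries (log2 fold change 0.26, SE 0.036, adjusted p = 0.000125). PLK1 had 90.8, 91.9 and 89.3 CPM with GSK-591, and 81.8, 79.1 and 78.5 CPM in untreated cells. It was among 2 higher and 1 lower of 30 tested G2/M and mitosis genes.

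Secreted factors and immediate early genes had more higher than lower calls, where 6.34% of all genes were higher and 6.12% lower. Of 20 chemokines and cytokines 5 were higher and 1 lower, 3 and 0 in both fits. IL6, an inflammatory cytokine, had 18.8, 18.1 and 19.8 CPM in MS023 libraries, against 15.4, 13.3 and 14.5 CPM in GSK-484 libraries (log2 fold change 0.39, SE 0.073, adjusted p = 0.00158), and CSF2, a myeloid growth factor, rose by 0.36 (adjusted p = 0.0182, but 0.0716 without MS023 replicate 2 and 0.0992 without GSK-484 replicate 3). CSF2 had 7.83, 7.95 and 7.91 CPM with MS023, 8.05, 7.22 and 8.25 CPM with GSK-591, and 6.89, 5.49 and 7.01 CPM in untreated cells. Of 21 AP-1 and immediate early genes 5 were higher and 0 lower by edgeR (9 at an unadjusted p under 0.05, 7 called by DESeq2), 3 and 0 in both fits. The median GC content of this list was 57.96%, and its part in the count was not tested. FOSL1, an AP-1 subunit, had 555, 574 and 560 CPM with MS023, against 454, 496 and 494 CPM with GSK-484 (0.23, SE 0.038, adjusted p = 0.000705). It had 547, 548 and 543 CPM with GSK-591, 520, 552 and 535 CPM with TP-472, and 428, 458 and 474 CPM in untreated cells. Collagens and laminins had 5 higher and 0 lower of 24, and NF-kB subunits and feedback genes 3 higher and 0 lower of 18, but no member of either list was called with the GC trend removed; DESeq2 called 8 and 6 members of these lists. Their median GC contents were 56.7 and 57.8%, above the 49.2% of all genes.

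Metabolic and stress genes were mixed, where 6.34% of all genes were higher and 6.12% lower. SMOX, which oxidises spermine, had 45.7, 51.0 and 45.8 CPM in MS023 libraries, against 35.3, 37.9 and 35.3 CPM in GSK-484 libraries (log2 fold change 0.39, SE 0.048, adjusted p = 2.57e-05). It was the only one of 16 genes of methylarginine clearance, arginine and polyamine metabolism called in both fits, where 3 were higher and 2 lower in the first. Of 15 amino acid transporters 2 were higher and 2 lower, 0 and 2 in both fits; the lower ones, SLC1A4 and SLC1A3, fell by 0.42 and 0.48 (adjusted p = 2.09e-05 and 0.0068). Of 21 integrated stress response genes 5 were higher and 3 lower, 2 and 2 in both fits: the stress regulator DDIT4 rose by 0.20 (adjusted p = 0.00325), and PCK2, a mitochondrial enzyme of phosphoenolpyruvate synthesis, fell by 0.27 (adjusted p = 0.00349). PCK2 had 30.4, 31.6 and 30.4 CPM with MS023, against 39.8, 37.0 and 34.9 CPM with GSK-484. Its MS023 libraries overlapped those of untreated cells (30.2, 34.6 and 33.1 CPM) and of GSK-591 (29.6, 31.3 and 29.2 CPM). The TP-472, UNC0642 and JQ-1 libraries lay above them. Of 25 cholesterol synthesis and uptake genes 2 were higher and 5 lower, 0 and 2 in both fits, with the methylsterol oxidase MSMO1 at -0.30 (adjusted p = 0.000868). Of 17 heat shock proteins 0 were higher and 4 lower by edgeR (7 at an unadjusted p under 0.05, 5 called by DESeq2), and 1, HSPA4 at -0.17 (adjusted p = 0.00304), was called in both fits. Metallothioneins had 0 calls of 8 by edgeR, 0 by DESeq2 and 0 at an unadjusted p under 0.05.

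Set directly against GSK-591, the inhibitor of the symmetric enzyme PRMT5, MS023 gave 1490 called genes (9.89%), 672 higher (4.46%) and 818 lower (5.43%). The contrasts share the MS023 libraries, and 706 genes were called in both in the same direction, 306 higher and 400 lower, which is 37.6% of the calls against GSK-484 and 47.4% of those against GSK-591. The shared libraries alone can make calls coincide. PRKACB stood at -0.90 (95% interval -1.03 to -0.77), LINC-PINT at 0.88 (0.76 to 0.99), DDX39B at 0.75 (0.68 to 0.83) and NEAT1 at 0.57 (0.49 to 0.65) against GSK-591. Such differences also depend on the GSK-591 levels, which for NEAT1 were 136, 144 and 144 CPM, against 169, 158 and 158 CPM in untreated cells. PRMT1 differed by 0.10 (-0.0043 to 0.21) and IGFBP3 by 0.04 (-0.04 to 0.11) and neither passed the test, although IGFBP3, a binding protein of insulin-like growth factors, rose against GSK-484 (0.21, adjusted p = 0.000868). SMNDC1, a Tudor-domain reader of methylarginine in the spliceosome, fell against both, by 0.49 against GSK-591 (95% interval -0.58 to -0.39) and by 0.21 against GSK-484 (adjusted p = 0.00433). With the GC trend removed the value against GSK-484 missed the threshold (adjusted p = 0.0788). SMNDC1 had 55.9, 54.1 and 56.7 CPM with MS023, 79.1, 77.2 and 76.8 CPM with GSK-591, and 67.6, 64.9 and 70.4 CPM in untreated cells.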

How the data were processed

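Poly-A selected RNA of SK-MEL-147 cells was sequenced, and the authors deposited expected counts (estimated counts per gene) for 21 libraries. These expected counts were made by the authors before deposit with Bowtie2 2.1.0, RSEM 1.2.15 and build hg38, as far as the submitters' processing notes name tools. RSEM divides reads that match several genes, so counts that are not whole (beyond 0.01) mark shared reads. Groups came from the labels. Expected counts were rounded and tested with edgeR 4.0.16 (R 4.3.3): filterByExpr (minimum count 10, minimum total 15) kept 15062 of 26475 genes, libraries were scaled by TMM, and a quasi-likelihood model with group as the only term was fitted to all 21 libraries, which share one estimate of the spread. A gene was called where its p, adjusted by Benjamini-Hochberg over all genes tested, was under 0.05. SE is the fold change over the square root of F.

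In a second fit, a loess curve (span 0.3) against GC content of the transcripts was drawn for each library. It was fitted to the deviation of log2 CPM, with a prior count of 2, from the gene's mean over all libraries in the fit. The curve, centred at its mean, was subtracted through offsets. GC content and positions came from GENCODE 29 models; genes without a model were not corrected. Alternatives included DESeq2 1.42.0, other scalings, other references and each library left out. Both fits were tested on simulated data.

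The members, gene lists and tests were chosen with earlier results of these data known. Genes were named by a rule: the 12 largest called rises and 12 largest falls averaging 3 CPM or more in whichever group was higher, no overlap between groups and whole counts in at least 4 of the 6 libraries, at most 4 uncertain genes per direction, at most 4 called members per list and direction by smallest p, and every PRMT and PADI gene. HADH and ANGPTL2, and the TREX list with THOC2 and POLDIP3, were added after their values were seen. Some single genes are not reported here by name, though the counts of their lists include them.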

Additional observations from a re-analysis of the deposited data

How the results depend on the processing

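The direction of every gene named with a fold change was kept under all alternatives run, except for 3 genes. CARM1 stood at -0.060 against untreated cells with the GC trend removed, and at -0.0052 without GSK-484 replicate 1 with that trend removed. HSPA4 stood at 0.0092 against untreated cells with the trend removed. PRMT9, which never passed the test, stood at 0.033 with the trend removed, at 0.032 with a replicate block as well, and between -0.094 and 0.00031 with 1 library left out, the highest without GSK-484 replicate 3. With the trend removed and 1 library left out, PRMT9 stood at 0.040 (MS023 replicate 1), 0.074 (MS023 replicate 3), 0.059 (GSK-484 replicate 2) and 0.052 (GSK-484 replicate 3).

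Of the genes named with a fold change, 9 lost their call with the GC trend removed, 24 with the 6 libraries fitted alone, 13 each without MS023 replicate 2 or GSK-484 replicate 3, and 5 to 9 without another library.

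The count of calls was 1877 as fitted. The 6 libraries fitted alone gave 433 (226 higher, 207 lower, 46 at least 1.5-fold), where fewer samples set the spread. Removing the GC trend gave 1154 (564 higher, 590 lower). The minimum fold of 1.2 left 29 (4 higher, 25 lower, 19 at least 1.5-fold). TP-472 and UNC0642 as the reference gave 2936 (1601 higher, 170 at least 1.5-fold), and untreated cells with the trend removed gave 1662 higher and 164 at least 1.5-fold. Total-count scaling gave 542 higher, and 516 lower against GSK-591. The cause was not tested for these moves except where stated. RLE scaling gave 1885, DESeq2 2145, no filter 1688, thinning to the smallest library 1327, and leaving out genes with counts that were not whole 1567.

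Leaving out 1 library in turn gave 741 to 2223 calls, 361 to 1252 higher, 380 to 971 lower and 69 to 124 at least 1.5-fold. The lowest was without MS023 replicate 2 (741), then without GSK-484 replicate 3 (956), and without MS023 replicate 1 the lower calls were 578. With the GC trend removed as well, alternatives chosen after seeing the data, the ranges were 607 to 1238 calls, 252 to 690 higher, 352 to 548 lower and 62 to 93 at least 1.5-fold, against 1154; without MS023 replicate 1 they were 735 (383 higher, 352 lower, 68 at least 1.5-fold), without MS023 replicate 2 they were 607 (252, 355 and 65), and without MS023 replicate 3 they were 713 (353, 360 and 62). Without GSK-484 replicate 1 they were 1238 (690, 548 and 93), without GSK-484 replicate 2 they were 1084 (551, 533 and 89), and without GSK-484 replicate 3 they were 769 (379, 390 and 69). For MS023 against GSK-591 the ranges were 808 to 1181 calls, 359 to 580 higher, 417 to 601 lower and 84 to 107 at least 1.5-fold, against 1490; MS023 replicates 1 and 2 gave 858 and 842, and GSK-591 replicates 2 and 3 gave 838 and 808.

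Samples with the same replicate number did not deviate together (correlations -0.042, -0.093 and -0.026), so the numbers were not taken as pairs. A replicate block gave 1739 calls (894 higher, 845 lower), and 1383 for MS023 against GSK-591. With the GC trend removed as well the block gave 1072 (535 higher, 537 lower). Counting depth limits genes of low CPM, where only large differences were called.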
